A study of Ovis aries with 24 samples.

Results

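ASPM, HMMR, TYMS and PCNA are 4 genes of dividing cells whose RNA was lower in newborn lambs than in fetal sheep, in the ductus arteriosus and in the aorta. They were chosen by earlier results of the same arrays, in which their signal was lower toward birth, so the changes between stages are given as a description and carry no test. Every probe whose name or description on the array gives 1 of these genes was taken. This found 6 probes for 4 genes, among 15008 probes for which 819 gene symbols could be assigned. All 6 probes were among the 13997 probes that passed the filter on dim signal (4 or more of the 24 arrays with the probe well above background). HMMR is printed on the array under its older name RHAMM, and TYMS under a gene number with the description thymidylate synthetase.

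A cell that divides first copies its DNA and then separates the copies on a spindle of microtubules. PCNA and TYMS serve the copying: PCNA is the ring-shaped clamp that holds DNA polymerase on its template, and TYMS makes the thymidine building block of DNA. ASPM and HMMR serve the separation: ASPM is a protein of the spindle poles, and HMMR binds hyaluronan and the spindle. In growing tissue the RNA of such genes is high in cycling cells and low in resting ones. The smooth muscle layer of fetal arteries grows by cell division.

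The ductus arteriosus is the fetal vessel through which blood bypasses the lungs, and it shuts in the newborn. RNA of the ductus and of the aorta was measured in 6 groups: preterm, near-term and newborn ductus, and preterm, near-term and newborn aorta, with 4 single-colour Agilent arrays from 4 animals in each group. The sources give ages of 97 days of gestation for preterm and 136 days for near-term fetuses (the sample titles say 100 and 140 days), out of a term of 145 days, and 12 hours for newborns. The aorta is labelled ascending aorta, and the protocol describes the piece as lying next to the ductus. Nothing in the sources used here ties a ductus and an aorta to the same animal, and no group carries a drug or a genetic change.

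Signals are given as the log2 of the background-subtracted spot signal minus the 75th percentile of its array, so that a difference of 1 is a 2-fold change and 0 is the level that 75 percent of spots stay under. The 75th percentile ran from 322.1 to 1143 signal units across arrays. Between 66.2 and 94.4 percent of spots were well above background. All 8 arrays of a stage lay on 1 of 3 slides, with the ductus in one column and the aorta in the other, so stage cannot be told apart from slide, nor vessel from column. The spike-in controls gave a detection limit above 1.5 on 12 arrays, which held 81.8 to 94.4 percent of spots well above background, against 66.2 to 72.7 percent on the other 12. None of the 4 newborn ductus arrays was in the class above 1.5, against 2 in each fetal ductus group, 3 in each fetal aorta group and 2 in the newborn aorta. In RNA from whole tissue, fewer dividing cells and less RNA per cell cannot be told apart.

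All 4 genes had their lowest mean in the newborn and their highest in the preterm animals in both vessels. The newborn minus preterm difference was largest for ASPM and smallest for PCNA, except that with normexp, a background correction that lifts dim readings, TYMS had the largest (−2.05 in the ductus and −2.38 in the aorta, against −1.91 and −1.65 for ASPM). In the ductus most of the difference lay between 136 days of gestation and 12 hours after birth for each of the 4 genes, and in the aorta this held for ASPM, HMMR and TYMS. For the median of all tested probes, the newborn minus preterm difference was −0.20 in the ductus and −0.12 in the aorta.

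**Figure D1:**
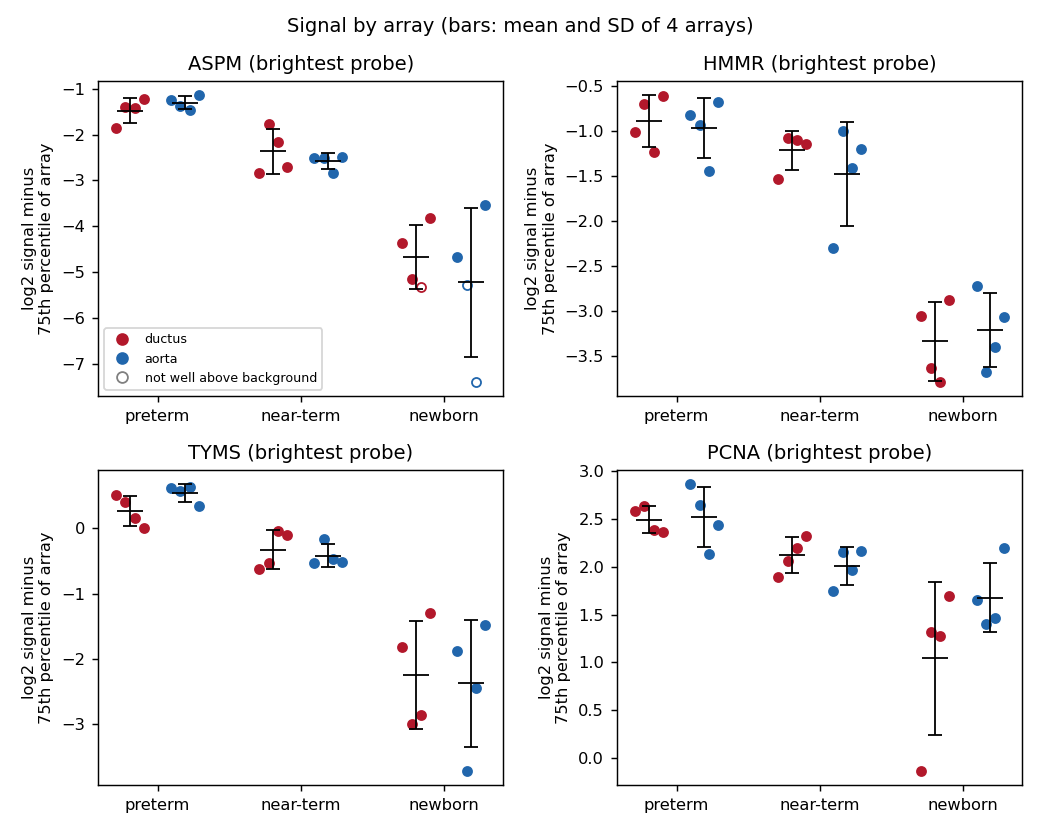
Log2 signal minus the 75th percentile of the array (vertical axes) of the brightest probe of ASPM, HMMR, TYMS and PCNA on each of 24 arrays, by stage, ductus in red left of aorta in blue. Points are arrays in order of replicate number, bars are the mean and SD of 4 arrays, and open points are arrays on which the probe was not well above background. The newborn arrays lie below all near-term arrays for ASPM, HMMR and TYMS in both vessels and for PCNA in the ductus, while PCNA in the aorta overlaps.

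ASPM, the spindle pole protein, had 1 probe (A_70_P002876). In the ductus it read −1.86, −1.39, −1.42 and −1.23 on the preterm arrays, −2.83, −1.76, −2.16 and −2.71 on the near-term arrays and −4.38, −5.16, −5.33 and −3.83 on the newborn arrays, in the order of replicates 1 to 4. All 4 newborn arrays were below all near-term arrays, while 1 near-term array overlapped the preterm group. Aorta readings of ASPM were −1.25, −1.37, −1.46 and −1.14 for preterm, −2.50, −2.51, −2.84 and −2.48 for near-term and −4.67, −5.29, −7.40 and −3.55 for newborn animals. The 3 aorta groups did not overlap at all. ASPM was well above background on every fetal array, but only on 3 of 4 newborn ductus and 2 of 4 newborn aorta arrays, so its lowest readings are close to the floor of the array.

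The near-term minus preterm difference of ASPM was −0.89 ± 0.52 in the ductus and −1.28 ± 0.52 in the aorta (± standard error of the fit here and in what follows, n = 4 arrays in each group). The newborn minus near-term difference was −2.31 ± 0.52 in the ductus and −2.65 ± 0.52 in the aorta, which is 4.95-fold and 6.26-fold lower signal in newborns. Over the whole span the newborn signal was 9.19-fold lower than the preterm signal in the ductus and 15.2-fold lower in the aorta. These sizes depend on the background correction. With normexp the newborn minus preterm difference was −1.91 in the ductus and −1.65 in the aorta, against −3.20 and −3.92. Under quantile normalisation the ductus steps became −1.32 and −1.24, so that the later step was no longer the larger one.

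HMMR, the hyaluronan and spindle binding protein, was read best by probe A_70_P016336, which was well above background on 24 of 24 arrays. In the ductus it read −1.01, −0.70, −1.24 and −0.61 on preterm, −1.53, −1.07, −1.10 and −1.15 on near-term and −3.05, −3.63, −3.78 and −2.88 on newborn arrays. The fetal stages overlapped, and all newborn arrays stood more than 1 log2 unit below both of them. Aorta readings of HMMR were −0.82, −0.93, −1.44 and −0.68 for preterm, −2.30, −1.0003, −1.41 and −1.20 for near-term and −2.72, −3.67, −3.39 and −3.06 for newborn animals. The pattern was the same as in the ductus, apart from near-term aorta replicate 1, which stood between the fetal and the newborn arrays. That array had the lowest 75th percentile of all 24 (322.1) and was the 1 near-term aorta array with a detection limit under 1.5.

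The near-term minus preterm difference of HMMR was −0.32 ± 0.28 in the ductus and −0.51 ± 0.28 in the aorta. With normexp it was −0.097 in the ductus and −0.15 in the aorta, and without near-term aorta replicate 1 it was −0.24 in the aorta. The newborn minus near-term difference was −2.12 ± 0.28 in the ductus, a 4.35-fold lower signal, and −1.74 ± 0.28 in the aorta, a 3.33-fold lower one. HMMR thus had 86.7 percent of its log2 difference between preterm and newborn ductus in the later step, the highest share among the 4 genes. On the arrays with a detection limit under 1.5 alone, the aorta steps were −1.48 and −0.90. That set holds 1 preterm, 1 near-term and 2 newborn aorta arrays, and its near-term array is replicate 1.

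TYMS, the enzyme that makes thymidylate, had 1 probe (A_70_P070554), well above background on all 24 arrays. In the ductus it read 0.51, 0.40, 0.16 and −0.00 on preterm, −0.62, −0.53, −0.04 and −0.11 on near-term and −1.82, −3.00, −2.86 and −1.30 on newborn arrays. In the aorta it read 0.61, 0.57, 0.63 and 0.34 on preterm, −0.53, −0.17, −0.46 and −0.52 on near-term and −1.88, −3.71, −2.44 and −1.48 on newborn arrays. TYMS was the one gene of the 4 for which the 3 stages were fully separated in both vessels, although the highest near-term and the lowest preterm ductus arrays nearly met (−0.04 and −0.00). Its newborn arrays were more spread than its preterm arrays. The SD was 0.82 in the newborn ductus and 0.97 in the newborn aorta, against 0.23 and 0.14 in the preterm ductus and aorta.

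The near-term minus preterm difference of TYMS was −0.59 ± 0.38 in the ductus and −0.96 ± 0.38 in the aorta. The newborn minus near-term difference was −1.92 ± 0.38 in the ductus and −1.96 ± 0.38 in the aorta, which is 3.79-fold and 3.88-fold lower. TYMS overlaps the gene ENOSF1 in the RefSeq annotation of the sheep assembly ARS-UI_Ramb_v3.0, and whether this probe also reads ENOSF1 transcripts was not tested.

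PCNA, the polymerase clamp, was read best by probe A_70_P026206. In the ductus its signal was 2.58, 2.64, 2.38 and 2.36 on preterm, 1.89, 2.06, 2.20 and 2.32 on near-term and −0.13, 1.32, 1.28 and 1.70 on newborn arrays. The 3 ductus groups did not overlap, but newborn replicate 1 stood far below the other 3 newborn arrays. In the aorta the signal was 2.86, 2.65, 2.13 and 2.44 for preterm, 1.75, 2.15, 1.96 and 2.17 for near-term and 1.65, 1.40, 1.47 and 2.19 for newborn animals. Here each stage overlapped the next, near-term with preterm at preterm replicate 3 and newborn with near-term at newborn replicate 4.

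The near-term minus preterm difference of PCNA was −0.37 ± 0.28 in the ductus and −0.51 ± 0.28 in the aorta. The newborn minus near-term difference was −1.08 ± 0.28 in the ductus, a 2.11-fold lower signal, and −0.33 ± 0.28 in the aorta. With normexp this aorta step was −0.03. Without newborn ductus replicate 1, the newborn minus near-term difference in the ductus was −0.69.

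The steps were also taken within each class of detection limit. In the ductus, the newborn minus near-term difference within the class under 1.5 (4 newborn and 2 near-term arrays) was −2.44 for ASPM, −2.23 for HMMR, −1.92 for TYMS and −1.15 for PCNA, and the class above held no newborn ductus array. In the aorta the same step within the class above 1.5 (2 newborn and 3 near-term arrays) was −2.87 for ASPM, −2.03 for HMMR, −1.58 for TYMS and −0.27 for PCNA. Within the class under 1.5 it was −2.48, −0.90, −2.26 and −0.22 for the same genes. The near-term minus preterm difference in the ductus was −0.95, −0.51, −0.59 and −0.42 within the class above and −0.83, −0.14, −0.60 and −0.32 within the class under 1.5, with 2 arrays of each stage in each class. In the aorta it was −1.28, −0.19, −0.90 and −0.31 above 1.5 (3 arrays of each stage) and −1.25, −1.48, −1.14 and −1.12 under 1.5 (1 array of each stage). All these differences of the brightest probes were negative, as without the split.

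Counted over the 4 genes at their brightest probes, newborn ductus arrays lay wholly below near-term ductus arrays for 4 of 4, where 14.9 percent of all tested probes did so. Newborn aorta arrays lay wholly below near-term aorta arrays for 3 of 4, against 5.58 percent of all probes. In the earlier step, near-term arrays lay wholly below preterm arrays for 2 of 4 in the ductus (TYMS and PCNA) against 3.13 percent of probes, and for 2 of 4 in the aorta (ASPM and TYMS) against 4.99 percent. Since the genes were chosen for these differences, the shares of all probes stand here as a scale only.

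The 2 steps were set against each other within a vessel. The later step was the larger one in 7 of the 8 combinations of gene and vessel, the exception being PCNA in the aorta. The later minus the earlier step in the ductus was −1.41 ± 0.90 for ASPM, −1.80 ± 0.48 for HMMR, −1.33 ± 0.66 for TYMS and −0.71 ± 0.49 for PCNA. In the aorta it was −1.37 ± 0.90, −1.22 ± 0.48, −0.998 ± 0.66 and 0.18 ± 0.49 for the same genes. These are sizes with their standard errors, not tests, since the steps chose the genes. The share of the whole log2 difference that lay in the later step was 72.1 percent for ASPM, 76.4 percent for TYMS and 74.4 percent for PCNA in the ductus. In the aorta it was 67.5 percent for ASPM, 77.3 percent for HMMR, 67.1 percent for TYMS and 39.3 percent for PCNA.

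**Figure D2:**
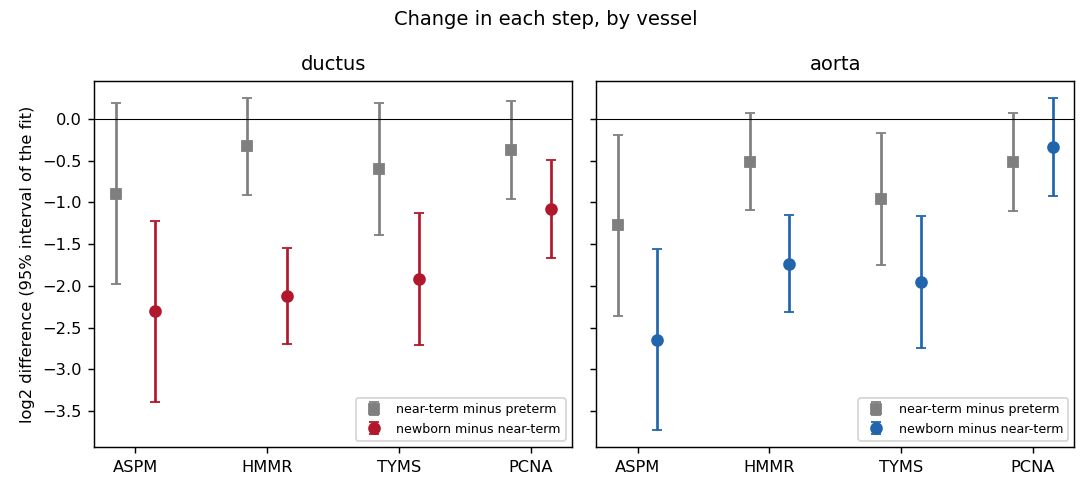
Log2 difference (vertical axis) of the earlier step (near-term minus preterm, grey squares) and the later step (newborn minus near-term, coloured circles) for each gene, ductus on the left and aorta on the right, with 95% intervals of the fit. The later step lies lower than the earlier one everywhere except for PCNA in the aorta (−0.33 against −0.51).

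The centring of the arrays weighs on this comparison of steps. The median of all tested probes was higher by 0.22 in near-term than in preterm ductus and by 0.13 in near-term than in preterm aorta, and lower by 0.31 (ductus) and 0.24 (aorta) in newborn than in near-term vessels. With each array set to its median, the earlier step of the 4 genes was −0.58 to −1.15 in the ductus and the later one −0.77 to −1.997. In the aorta the earlier step was then −0.69 to −1.45, and the later one −1.51 to −2.42 for ASPM, HMMR and TYMS and −0.11 for PCNA. The sign of every step of the 4 genes was negative under this setting, normexp and quantile normalisation.

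The ductus and the aorta were then compared at each stage, a contrast that the choice of the genes did not use. None of the 4 genes differed between the vessels at any of the 3 stages in limma's test over all probes, in 12 tests of which the lowest adjusted p was 0.152, and 1 of the 12 had an unadjusted p under 0.05 (PCNA in newborns). Of all probes 0.707 percent were called in the preterm, 1.15 percent in the near-term and 10.1 percent in the newborn comparison at an adjusted p under 0.05. For ASPM the ductus minus aorta difference was −0.17 (95% interval −1.25 to 0.92, adjusted p = 0.896) in preterm, 0.21 (−0.87 to 1.30, 0.940) in near-term and 0.55 (−0.53 to 1.64, 0.453) in newborn animals. HMMR differed by 0.08 (−0.50 to 0.66), 0.26 (−0.32 to 0.84) and −0.12 (−0.70 to 0.46) at the same stages, with limma adjusted p-values of 0.912, 0.934 and 0.769. The differences of TYMS were −0.27 (−1.06 to 0.52), 0.09 (−0.70 to 0.89) and 0.13 (−0.66 to 0.92), with limma adjusted p-values of 0.752, 0.964 and 0.823.

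PCNA gave the difference farthest from 0 between vessels relative to its error. In newborns it was −0.63 in the ductus relative to the aorta (−1.22 to −0.04), 1.55-fold lower, with an adjusted p of 0.152 in limma's test. The newborn ductus arrays of −0.13, 1.32, 1.28 and 1.70 overlapped the newborn aorta arrays of 1.65, 1.40, 1.47 and 2.19, and 3 of the 4 ductus arrays were below the lowest aorta array. Without newborn ductus replicate 1 the difference was −0.24. Preterm and near-term vessels differed by −0.03 (−0.62 to 0.56) and 0.11 (−0.48 to 0.70) in PCNA, with limma adjusted p-values of 0.969 and 0.942. For each of the 4 genes the interval that reached farthest from 0 went beyond its earlier step in either vessel. For PCNA it reached −1.22, against earlier steps of −0.37 in the ductus and −0.51 in the aorta. The intervals thus do not show that the vessels were alike. Each interval rests on 1 spread per probe, pooled over the 6 groups. Wide newborn groups thus widen the fetal intervals, and narrow fetal groups narrow the newborn ones. For PCNA the SD was 0.80 in newborn ductus and 0.36 in newborn aorta, against 0.14 in preterm ductus and 0.31 in preterm aorta. Its newborn interval and unadjusted p therefore rest in part on the smaller fetal spread. For ASPM the SD was 1.62 in newborn aorta, against 0.27 in preterm ductus and 0.14 in preterm aorta.

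The change itself was also set against the other vessel. For the whole span from preterm to newborn, the ductus minus aorta difference of the changes was 0.72 (95% interval −0.82 to 2.26) for ASPM, −0.20 (−1.02 to 0.62) for HMMR, 0.40 (−0.72 to 1.52) for TYMS and −0.60 (−1.44 to 0.23) for PCNA. All 4 intervals included 0. In the later step the difference of PCNA was −0.74 (−1.58 to 0.09), and the other 3 genes lay between −0.39 and 0.34. In the earlier step all 4 genes differed by 0.14 to 0.38, the aorta having the larger step each time, with intervals that included 0.

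Ordered by mean signal, the 6 groups of ASPM ran from preterm aorta (−1.31 ± 0.14, SD, n = 4) through preterm ductus (−1.47 ± 0.27), near-term ductus (−2.37 ± 0.50), near-term aorta (−2.58 ± 0.17) and newborn ductus (−4.67 ± 0.70) to newborn aorta (−5.23 ± 1.62). The one gap without overlap between neighbours in this order lay between near-term aorta and newborn ductus. The order of HMMR had the same single gap, from near-term aorta (−1.48 ± 0.57, SD, n = 4) to newborn aorta (−3.21 ± 0.41). For PCNA the gap without overlap lay earlier, between preterm ductus (2.49 ± 0.14, SD, n = 4) and near-term ductus (2.12 ± 0.19). Neighbouring groups after that overlapped down to newborn ductus (1.04 ± 0.80).

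HMMR and PCNA had a further probe each. The other probe of PCNA (A_70_P026207) was well above background on all 24 arrays and read 0.24, 0.64, 0.02 and 0.30 on preterm, −0.22, −0.40, 0.31 and 0.19 on near-term and −0.42, −0.62, −1.05 and −1.02 on newborn ductus arrays. In the aorta it read 0.74, 0.44, 0.07 and 0.41 on preterm, −0.59, −0.09, −0.05 and −0.04 on near-term and −0.33, −0.75, −1.39 and −1.34 on newborn arrays. By this probe the aorta was lower in newborn than in near-term animals by a difference of −0.76 ± 0.24, close to the −0.75 ± 0.24 of the ductus, and the later step was the larger one in both vessels. Within the classes of detection limit this aorta step was −1.31 above 1.5 and 0.051 under 1.5, where the near-term group is 1 array. The newborn ductus minus aorta difference was 0.17 (adjusted p = 0.617 in limma), of the opposite sign to the brightest probe. The low newborn ductus replicate 1 of the brightest probe was the highest newborn ductus array by this one (−0.42). Over the 24 arrays the 2 probes correlated with r = 0.618, and the vessel difference of PCNA after birth changed sign with the probe.

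**Figure D3:**
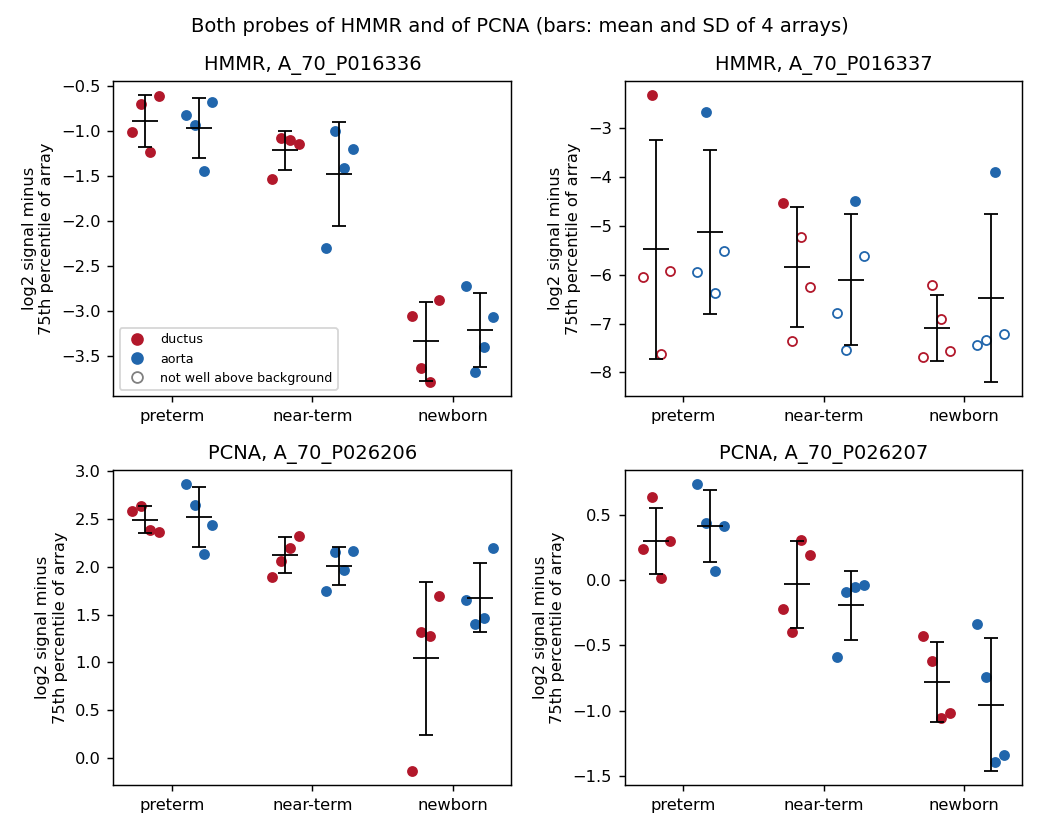
Log2 signal minus the 75th percentile of the array (vertical axes) of both probes of HMMR (top) and of PCNA (bottom), by stage, ductus in red left of aorta in blue, with the mean and SD of 4 arrays. Open points were not well above background. The low PCNA reading of newborn ductus replicate 1 (−0.13) appears by probe A_70_P026206 and not by A_70_P026207, and HMMR probe A_70_P016337 was read on 5 of 24 arrays.

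The other probe of HMMR (A_70_P016337) was dim. It was well above background on 1 array in each fetal group and the newborn aorta, and on 0 of 4 newborn ductus arrays, 5 of 24 in all. Its readings ran from −7.69 to −2.33, and they correlated with those of the brighter probe with r = 0.369. In the preterm ductus 1 array stood high (−2.33) and the other 3 were near the floor, so no fold is given. It adds no usable timing.

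The 4 genes ranked the animals of a group alike in some groups and not in others. In the newborn ductus, replicate 4 was the highest array for all 4 genes and replicate 3 the lowest for ASPM and HMMR. In the newborn aorta, replicate 4 was the highest for ASPM, TYMS and PCNA, and replicate 2 the lowest for HMMR, TYMS and PCNA. Near-term ductus replicate 1 was the lowest of its group for all 4 genes, and near-term aorta replicate 1 for HMMR, TYMS and PCNA but not for ASPM. The preterm groups showed opposed ranks: preterm ductus replicate 4 was the highest for ASPM and HMMR and the lowest for TYMS and PCNA. Preterm aorta replicate 3 was the lowest for ASPM, HMMR and PCNA and the highest for TYMS. The newborn groups contained the widest ranges: the mean of the 4 genes, each centred on its own mean, ran from −1.78 to −0.68 in newborn ductus and from −2.05 to −0.58 in newborn aorta, while the preterm ductus ran from 0.86 to 1.13 and the preterm aorta from 0.86 to 1.24.

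Over all 24 arrays the 6 pairs of genes correlated with r between 0.721 (ASPM with PCNA) and 0.933 (HMMR with TYMS). These values carry the shared stage pattern that chose the genes. With the group means removed, r was 0.228 to 0.570, the highest again between HMMR and TYMS. The arrays share their slides and their scaling, so the values are a description with no test.

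Among 772 other named genes, PMCH was closest in pattern to the mean of the 4 genes over the 24 arrays (r = 0.973). PMCH is the gene of the precursor of melanin-concentrating hormone, a peptide of the brain, and its 2 probes gave r = 0.973 and 0.969. It overlaps PARPBP in the RefSeq annotation of ARS-UI_Ramb_v3.0, and which of the transcripts the probes read was not tested. By the brighter probe (A_70_P002922) the ductus read −2.23, −1.79, −1.93 and −1.70 on preterm, −3.10, −2.44, −2.18 and −2.60 on near-term and −4.41, −4.71, −4.91 and −4.10 on newborn arrays. The newborn minus near-term difference was −1.95 in the ductus and −1.98 in the aorta, and the near-term minus preterm difference −0.67 and −0.77. With the group means removed PMCH correlated with the mean of the 4 genes with r = 0.832.

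The next most alike genes were PRND, of the prion protein family (r = 0.879), CA11, a carbonic anhydrase-related protein (0.876), IGFBP2, a binding protein of insulin-like growth factors (0.837), the apolipoprotein gene ApoA1 (0.820), the copper transporter gene ATP7B (0.815), LMNB1, a lamin of the nuclear envelope (0.792) and H2AZ1, a histone variant (0.787). LMNB1 followed the timing of the ductus most sharply: its near-term minus preterm difference was 0.01 there, and its newborn minus near-term difference −1.99. In the aorta LMNB1 differed by −0.16 and −1.59 in the same steps. PRND, CA11 and IGFBP2 had larger earlier steps in the aorta (−0.92, −1.35 and −1.85) than later ones (−0.63, −1.12 and −1.21). For PRND the other probe (A_70_P030146) gave the opposite order, with means of −2.70, −3.56 and −4.72 in preterm, near-term and newborn aorta. That probe was well above background on 2 of 4 newborn aorta arrays. By the brighter PRND probe newborn aorta replicate 4 read −2.57, against −4.54, −4.44 and −4.42 on replicates 1 to 3. PCNA taken alone was most like PRND (r = 0.815), PMCH (0.746) and PHF14 (0.728), and ASPM, HMMR and TYMS each were most like PMCH (0.934, 0.971 and 0.952).

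**Figure D4:**
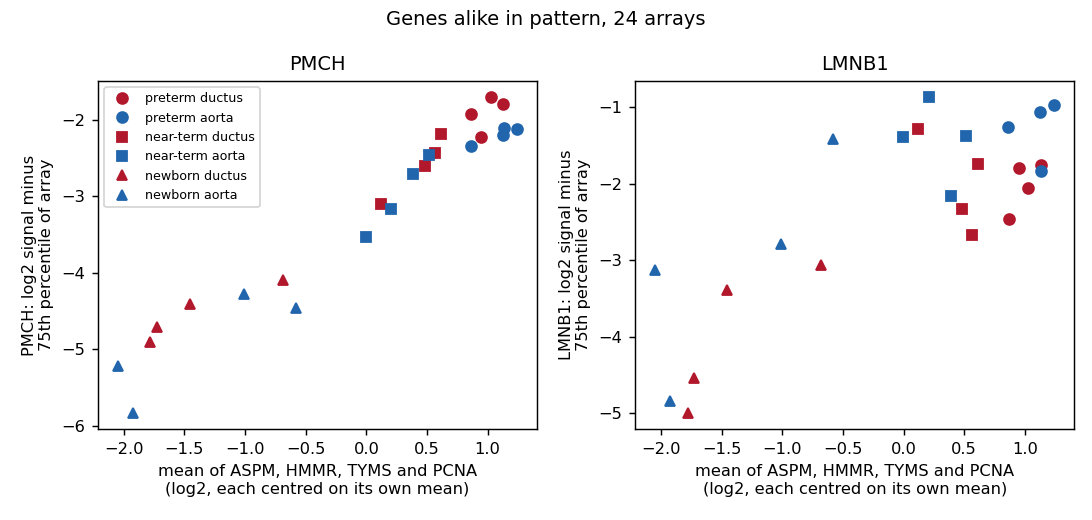
Signal of PMCH (left) and LMNB1 (right) as log2 minus the 75th percentile of the array, against the mean of ASPM, HMMR, TYMS and PCNA on the same array (log2, each gene centred on its own mean), for 24 arrays by group. PMCH runs along a line with the 4 genes (r = 0.973), while LMNB1 holds its fetal level in near-term arrays and is lower in most newborn arrays (r = 0.792).

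The array names few other genes of cell division. Of 124 genes on 4 lists (DNA replication and nucleotide synthesis, mitosis and spindle, cyclins and their kinases and activators, brakes of the cell cycle), 8 are named on it, the 4 genes and DNMT1, H2AZ1, MYC and CDKN1B. Of these 4 others, 1 was called higher and 0 lower in newborn against near-term ductus, where 4.37 and 6.45 percent of all probes were called, and 0 in newborn against near-term aorta (3.07 percent higher and 3.37 percent lower of all probes). Between newborn and preterm, 0 were called higher and 1 lower in the ductus, where 7.36 and 8.34 percent of all probes were called, and 0 higher and 1 lower in the aorta (3.94 and 5.16 percent). At an unadjusted p under 0.05 in limma, 2 of the 4 differed in newborn against near-term ductus and 2 in newborn against near-term aorta. Against preterm, the same count was 4 for newborn ductus and 2 for newborn aorta.

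H2AZ1, a histone variant needed in dividing cells, was the called gene with a lower signal. It read 3.08, 3.44, 3.09 and 3.103 on preterm, 2.50, 2.72, 2.85 and 3.37 on near-term and 2.63, 1.58, 2.29 and 2.62 on newborn ductus arrays. Newborn ductus was lower than preterm ductus by a difference of −0.90 ± 0.24 (adjusted p = 0.0164 in limma) and newborn aorta lower than preterm aorta by −0.83 ± 0.24 (0.0378). Neither single step was called. Both calls ended at a similar size with median centring (−0.85 and −0.79 for ductus and aorta, adjusted p = 0.118 and 0.251). On the arrays with a detection limit under 1.5 the ductus call ended (−0.99, adjusted p = 0.140). The aorta difference there was −1.11, with 1 preterm aorta array. Both calls also ended in the fit of only the groups compared (0.0611 and 0.134), and the aorta call with normexp (−0.54, adjusted p = 0.285). Without single arrays the ductus call ended for 2 of 8 arrays (adjusted p up to 0.0639) and the aorta call for 5 of 8 (up to 0.135).

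MYC, a transcription factor that drives growth, went the other way. It read 1.52, 2.21, 2.54 and 1.77 on newborn and 0.38, 0.39, 0.31 and 0.30 on near-term ductus arrays, which do not overlap, a difference of 1.67 ± 0.36 (3.17-fold higher in newborns, adjusted p = 0.00485 in limma). The preterm ductus arrays read 1.31, 1.63, 0.22 and 1.12, so 1 of them lay below all near-term arrays. The near-term mean was the lowest of the 3 stages, but its difference from preterm ductus (−0.73) was not called. In the aorta the newborn minus near-term difference was 1.10 ± 0.36 (adjusted p = 0.0725), which did not pass. On the arrays with a detection limit under 1.5 the ductus call was lost at the same size (1.67, adjusted p = 0.0726).

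DNMT1, which copies DNA methylation onto new strands, had newborn minus preterm differences of −0.49 ± 0.18 in the ductus (adjusted p = 0.0710 in limma) and −0.43 ± 0.18 in the aorta (0.162). Almost all of it lay in the earlier step, −0.46 in the ductus and −0.36 in the aorta, and the later step was −0.03 and −0.07. CDKN1B, an inhibitor of the kinases that drive the cell cycle, was called in no comparison. It was at 0.94 ± 0.41 in newborn minus preterm ductus (adjusted p = 0.138) and −0.36 ± 0.41 in the aorta (0.770).

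Insulin-like growth factors, which stimulate growth of fetal tissues, and their binding proteins and receptors were represented by 11 tested genes. Of these, 1 was called higher and 2 lower in newborn against preterm ductus, and 0 higher and 3 lower in newborn against preterm aorta, beside the shares of all probes given for the cell cycle genes. At an unadjusted p under 0.05 in limma, 5 of the 11 differed in each vessel. The list's median was 0.18 in the ductus and −0.24 in the aorta, beside −0.20 and −0.12 for all probes. IGF2, the fetal growth factor, was lower in newborn than in preterm ductus by a difference of −1.47 ± 0.28 and in newborn than in preterm aorta by −1.43 ± 0.26 (adjusted p = 0.00274 and 0.00307 in limma). The aorta call ended with median centring (−1.38, adjusted p = 0.0807) and in the fit of only the groups compared (0.0744). On the arrays with a detection limit under 1.5, with 1 preterm aorta array, the aorta difference was −0.74. Its probe was left out on 6 of the 24 arrays, 1 preterm ductus, 2 near-term ductus and 3 near-term aorta arrays, where the scanner software marked the spot, so its timing is not given.

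IGFBP2 was the gene of this list closest to the 4 genes. It read 4.26, 3.68, 4.15 and 4.08 on preterm, 2.59, 2.96, 2.67 and 3.18 on near-term and 2.37, 1.35, 1.29 and 1.98 on newborn ductus arrays. In the aorta it read 4.04, 3.63, 3.33 and 3.48 on preterm, 1.72, 1.97, 1.37 and 2.05 on near-term and 1.15, 0.54, 0.18 and 0.38 on newborn arrays. The 3 stages did not overlap in either vessel. The near-term minus preterm difference was −1.19 ± 0.26 in the ductus (adjusted p = 0.0495 in limma) and −1.85 ± 0.26 in the aorta (0.00119), and the newborn minus near-term difference −1.10 ± 0.26 (0.00853) and −1.21 ± 0.26 (0.00777). The earlier ductus call was lost without any 1 of the 8 arrays of that comparison (adjusted p = 0.0530 to 0.197). Both calls of the later step ended with median centring (−0.79 and −0.99 for ductus and aorta, adjusted p = 0.156 and 0.207) and in the fit of only the groups compared (0.0645 and 0.136). On the arrays with a detection limit under 1.5 the later ductus call ended (−1.32, adjusted p = 0.0657). The aorta steps there were −2.33 and −0.87, with 1 preterm and 1 near-term array. The earlier ductus call also ended with 5 of the alternatives, median centring (0.195) among them. Over the whole span, no alternative ended the IGFBP2 calls.

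Between stages, IGFBP3 was the one gene of the list called higher, with 2.66, 2.06, 2.69 and 2.34 on newborn and 0.46, 0.19, 0.42 and 1.00 on near-term ductus arrays (difference 1.92 ± 0.33, 3.79-fold, adjusted p = 0.000759 in limma). In newborn minus near-term aorta it was 0.73 ± 0.33 (adjusted p = 0.209). IGFBP4 was lower in newborn than in preterm aorta by a difference of −0.56 ± 0.17 (adjusted p = 0.0374 in limma). This call ended with normexp (0.432), median centring (0.489) and quantile normalisation (0.0877). It also ended in the fit of only the groups compared (0.131) and without 5 of 8 single arrays (up to 0.117).

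Between the vessels, 5 of the 11 genes were called higher in newborn ductus than in newborn aorta (5.15 percent of all probes were) and 1, IGFBP2, in near-term ductus against near-term aorta (0.679 percent). In newborns IGFBP6 was higher in the ductus by a difference of 1.16 ± 0.19 (adjusted p = 0.000707 in limma) and IGFBP3 by 1.66 ± 0.33 (0.00287). IGFBP2 was higher by 1.19 ± 0.26 in newborn (0.00594) and by 1.08 ± 0.26 in near-term animals (0.0425). IGF1R, the receptor of these growth factors, was higher by 0.84 ± 0.25 (0.0411) and IGFBP4 by 0.53 ± 0.17 (0.0465) in newborn ductus. All 6 calls ended in the fit of only the groups compared (adjusted p = 0.0562 to 0.172 in limma). The 5 newborn calls also ended on the arrays with a detection limit under 1.5 (0.0793 to 0.305). For near-term animals those arrays hold 1 aorta array. In all, 7 of 10 alternatives ended the newborn call of IGFBP4, 4 of 10 that of IGF1R and 5 of 10 the near-term call of IGFBP2. The near-term call of IGFBP2 ended without 7 of 8 single arrays, and the calls of IGF1R and IGFBP4 without 6 of 8 each.

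**Figure D5:**
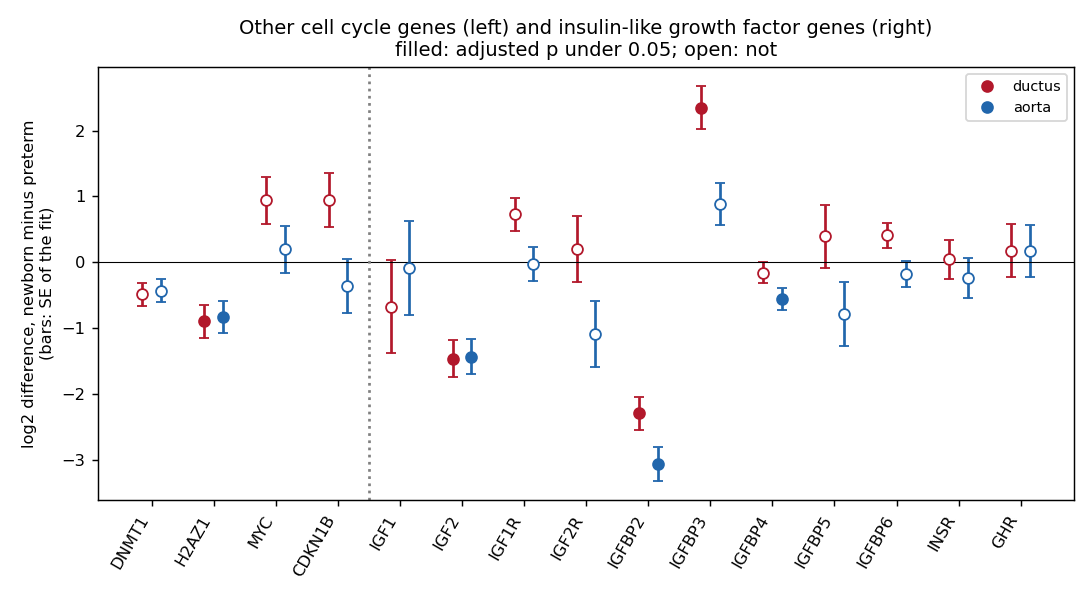
Log2 difference newborn minus preterm (vertical axis, bars are standard errors of the fit) of the 4 other cell cycle genes and of 11 genes of the insulin-like growth factor list, ductus in red left of aorta in blue. Filled points have an adjusted p under 0.05: H2AZ1, IGF2 and IGFBP2 were lower in both vessels, IGFBP4 lower in the aorta and IGFBP3 higher in the ductus.

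Markers of the cells that these vessels hold were read beside the 4 genes, as the summed signal of each list in multiples of the 75th percentile of the array. Of 12 smooth muscle markers the array names 2, CNN1 and MYLK. Their sum was 84.9 to 145.0 in newborn, 115 to 197 in near-term and 46.0 to 89.3 in preterm ductus. In the aorta the sum was 65.9 to 149 in newborn, 43.5 to 105 in near-term (the CNN1 spot of replicate 3 was left out) and 44.5 to 65.9 in preterm animals. CNN1, calponin of contractile smooth muscle, was higher in newborn than in near-term aorta by a difference of 0.83 ± 0.21 (adjusted p = 0.0264 in limma), while its newborn minus near-term difference in the ductus was −0.11 ± 0.20 (0.726). This later-step call of CNN1 ended with median centring (0.245) and in the fit of only the groups compared (0.239). It also ended without any of near-term replicates 1 and 2 and newborn replicates 1, 2 and 3 (0.0617 to 0.0899). CNN1 was called higher in newborn than in preterm aorta too (3.94 percent of all probes were). With 1 array left out that difference was 1.05 to 1.33 (adjusted p at most 0.0052 in limma), and the call ended with 2 of 9 alternatives. In newborn against preterm ductus 0 of the 2 markers were called (7.36 percent higher and 8.34 percent lower of all probes).

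Sums of blood and stromal markers differed between the stages too. The 3 macrophage markers (CD14, CD86, ITGAM) summed to 1.15 to 1.52 in newborn, 0.402 to 0.611 in near-term and 0.364 to 0.462 in preterm ductus, and to 0.672 to 1.26 in newborn, 0.460 to 0.562 in near-term and 0.353 to 0.508 in preterm aorta. The sum was thus above all fetal arrays in both newborn vessels, where ASPM, HMMR and TYMS were lowest. The 5 endothelial markers tested summed to 2.23 to 3.09 in newborn ductus, against 0.837 to 1.54 in near-term and 0.886 to 1.11 in preterm ductus, while newborn aorta gave 0.600 to 1.22 against 0.740 to 1.76 in near-term and 1.11 to 1.53 in preterm aorta. The 4 fibroblast markers (DCN, COL1A1, COL3A1, C3) summed to 14.4 to 31.9 in newborn, 21.6 to 42.2 in near-term and 40.8 to 59.3 in preterm aorta, and to 47.0 to 74.8 in newborn, 53.5 to 79.5 in near-term and 67.1 to 83.4 in preterm ductus. The 4 lymphocyte markers ranged from 0.174 to 1.23 over all groups, with CD4 not well above background on any newborn ductus array, and the globin gene HBB from 0.724 to 95.8. The part of these sums in the difference of the 4 genes was not tested.

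Of the macrophage markers, 3 of 3 were called higher in newborn than in preterm ductus, where 7.36 percent of all probes were. In newborn against preterm aorta 1 of 3 was called higher, where 3.94 percent of all probes were. CD14 was higher in newborn ductus by a difference of 1.80 ± 0.21 (adjusted p = 4.85e-06 in limma), CD86 by 1.55 ± 0.34 (0.00344) and ITGAM by 1.47 ± 0.37 (0.00863), and the calls of CD86 and ITGAM ended with normexp (0.188 and 0.708). In newborn against preterm aorta CD14 was higher by 1.15 ± 0.21 (0.00105), a call that ended in the fit of only the groups compared (0.0926). On the arrays with a detection limit under 1.5, with 1 preterm aorta array, this CD14 difference was 1.39. In newborn against preterm ductus 2 of 5 endothelial, 1 of 4 fibroblast and 1 of 4 lymphocyte markers were called higher, and 0 lower. The median difference there was −0.0002 for the fibroblast and 0.11 for the lymphocyte list. In the aorta 1 of 5 endothelial and 1 of 4 fibroblast markers were called lower, where 5.16 percent of all probes were. Among endothelial markers, SELP was higher in newborn than in preterm ductus by 3.67 ± 0.38 (adjusted p = 1.4e-06 in limma) and NOS3 by 1.07 ± 0.35 (0.0401). KDR was lower in newborn than in preterm aorta by a difference of −0.92 ± 0.25 (0.0257). Among fibroblast markers, C3 was higher in newborn than in preterm ductus by 2.18 ± 0.39 (0.000642), and DCN was lower in newborn than in preterm aorta by a difference of −1.14 ± 0.25 (0.00618). The lymphocyte marker CXCR4 was higher in newborn than in preterm ductus by 0.94 ± 0.32 (0.0471). The calls of NOS3, CXCR4 and ITGAM ended on the arrays with a detection limit under 1.5 (adjusted p = 0.0953 or more in limma). Those of NOS3, KDR, DCN and CXCR4 ended in the fit of only the groups compared (0.0620 to 0.192). The calls of NOS3 and CXCR4 also ended without 6 of 8 single arrays, and that of KDR without 4 of 8. No alternative ended the calls of SELP and C3 in newborn against preterm ductus. KDR and CXCR4 also lost theirs with normexp (0.491 and 0.420), DCN and CXCR4 with median centring (0.184 and 0.0580), and CXCR4 with quantile normalisation, the replicate block and no filter on dim probes.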

How the data were processed

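Per the labels' protocols, each sample's total RNA was labelled with Cy3 and put on an array of its own, read in 1 colour. Per the file headers, the deposited values are the linear spot intensity that Agilent Feature Extraction 9.5.3.1 gives once background has been subtracted. Further normalisation is not given in the sources used here.

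Controls, and the 2 to 124 spots per array that the scanner software marked (non-uniform, population outlier), were left out. The array's 75th percentile was subtracted on the log2 scale, and repeated spots of a probe were averaged. The probe with the highest mean stands for a gene. The 6 group means were fitted together over the 24 arrays with lmFit and eBayes of limma 3.58.1 in R 4.3.3 (two-sided tests), with Benjamini-Hochberg adjustment over 13997 probes within a comparison and calls at 0.05. P-values set a difference against the spread between arrays within a group, pooled over the 6 groups of 4 animals each. Between stages, the difference itself cannot be told apart from slide. Symbols came from the array's names and the RefSeq table of ARS-UI_Ramb_v3.0, and 13590 of 15008 probes are unnamed here.

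The members and lists were chosen with earlier results of these data known, and the split of detection limits at 1.5 comes from an earlier analysis. Named genes are the 4 members, the called genes of each list (at most 4 in each direction), and the 8 most alike by Pearson correlation, with the 3 most alike to each member. Calls of the cell marker lists are given for newborn against preterm, beside their sums, and those of smooth muscle also for newborn against near-term. A further cell cycle gene was left out of the lists and is not reported here.

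Alternatives were normexp (offset 50), median centring, quantile normalisation, keeping marked spots, the detection limit class as a covariate or as a filter, the replicate number as a block, other filters on dim probes, a fit of only the groups compared, the other probe, and leaving out each array. Fits of only the groups compared used 8 arrays and those under 1.5 used 12, fewer than the main fit. Whether calls lost there at a similar size were lost for this alone was not tested. Under 1.5 the preterm and the near-term aorta held 1 array each, so calls with these groups cannot be judged there. In simulated data with known changes, the fit recovered 27 percent of changes of 1 and 68 percent of changes of 2 on the log2 scale for newborn minus near-term ductus, with 7 false calls among 102, over 13498 probes. For newborn ductus minus aorta it recovered 29 and 64 percent, with 2 false calls among 95. The simulated noise was normal and independent, with the same SD of a probe in every group and no effect of slide or detection limit class. The real groups differed in spread and in class, so these figures check the fit and do not give its power on these arrays. Among 276 pairs of arrays 0 held identical values. The number of arrays limits the precision.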

Additional observations from a re-analysis of the deposited data

Results flagged for a closer look

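In 4 of 36 sets of 4 arrays of the 6 probes, 1 array stood apart from the other 3 by Dixon's test, where chance gives about 1.8. ASPM was low on near-term aorta replicate 3 (−2.84). HMMR was low on near-term ductus replicate 1 (−1.53) by its brighter probe and high on newborn aorta replicate 3 (−3.90) by its dim probe, the one newborn aorta array on which that probe was well above background. PCNA was low on near-term aorta replicate 1 (−0.59) by its dimmer probe A_70_P026207. The low HMMR reading lies on the near-term ductus array that was lowest of its group for all 4 genes.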

How the results depend on the processing

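Every step and every whole-span difference of ASPM, HMMR, TYMS and PCNA was negative under each alternative run, and each stayed within 1 SD of its value with any 1 array left out. None of the 12 differences between ductus and aorta was called under any alternative or with any 1 array left out, so the changes of sign below are among values not told from 0. Causes of the shifts were not tested. Normexp gave −0.41 and −1.50 for the ductus steps and −0.49 and −1.16 for the aorta steps of ASPM, −0.31 for its newborn ductus minus aorta difference (sign turned), −1.62 for the later ductus step of HMMR, −0.54 for the earlier ductus step and −0.032 for the later aorta step of PCNA. Median centring gave −1.45 (ASPM) and −1.14 (TYMS) for the earlier aorta step and −0.58 (HMMR) and −0.63 (PCNA) for the earlier ductus step. It turned the sign of the ductus minus aorta differences of ASPM (0.0055) and PCNA (0.14) in preterm and of HMMR (0.052) in newborn animals. Quantile normalisation gave −1.32 and −1.24 for the ductus steps and −1.71 for the earlier aorta step of ASPM, −1.65 for the later ductus step of HMMR, 0.16 for its ductus minus aorta difference of the later step and 0.40 for its newborn ductus minus aorta difference (sign turned). Arrays whose detection limit was under 1.5, taken alone, gave −1.48 and −0.90 for the aorta steps of HMMR, 1.34 and −1.33 for its ductus minus aorta differences of these steps and −0.15 for its preterm ductus minus aorta difference (sign turned). They gave −1.14 (TYMS) and −1.12 (PCNA) for the earlier aorta step, and 0.80 for the ductus minus aorta difference of the earlier step of PCNA. Their near-term aorta group is 1 array, replicate 1, and their preterm aorta group is 1 array. The other probe gave −1.25 (ductus) and −0.37 (aorta) for the later step of HMMR, 0.61 and −0.87 for its ductus minus aorta differences of the steps, −0.36 for its preterm ductus minus aorta difference (sign turned), −0.76 for the later aorta step of PCNA, 0.012 for its ductus minus aorta difference of the later step and 0.17 for its newborn ductus minus aorta difference (sign turned).

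With 1 array left out, the ductus minus aorta difference ran from −0.082 to 0.19 for HMMR and −0.16 to 0.083 for PCNA in preterm, from −0.012 to 0.42 for HMMR and −0.0016 to 0.19 for TYMS in near-term, and from −0.17 to 1.11 for ASPM, −0.28 to 0.040 for HMMR and −0.32 to 0.43 for TYMS in newborn animals. The difference of ASPM turned without newborn aorta replicate 3 (−0.17).

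Counts of calls over all probes moved more. Under 1.5 the preterm and the near-term aorta held 1 array each, which gives no spread of its own. Counts under 1.5 for any comparison with either of these groups therefore cannot be judged, and no conclusion is drawn from them. For ductus minus aorta in preterm, near-term and newborn animals (99, 161 and 1416 calls) they were 52, 50 and 855 with normexp, 58, 49 and 833 with median centring, 378, 942 and 853 under 1.5, 33, 40 and 371 in fits of only the groups compared, and 52 to 85, 70 to 156 and 857 to 1592 with 1 array left out. For near-term minus preterm ductus (44 calls) they were 28 with normexp, 12 with median centring, 148 with the limit class as covariate, 104 for probes well above background on all arrays, 2 with only the groups compared and 11 to 54 with 1 array left out. On the arrays under 1.5 they were 0 in limma's test (1586 of 13988 probes at an unadjusted p under 0.05). For newborn minus near-term ductus (1515) they were 5411 with normexp, 614 under 1.5, 871 with only the groups compared and 921 to 2176 with 1 array left out. For newborn minus preterm ductus (2197) they were 1254 with normexp, 1343 with median centring, 1216 under 1.5 and 1611 to 1971 with 1 array left out. In the aorta, near-term minus preterm (69) gave 14 with median centring, 104 with the covariate, 287 under 1.5, 112 for probes above background on all arrays, 12 with only the groups compared and 18 to 53 with 1 array left out. Newborn minus near-term aorta (902) gave 181 with median centring, 1497 under 1.5 and 478 to 1532 with 1 array left out, and 0 with only the groups compared in limma's test (1963 of 13997 probes at an unadjusted p under 0.05). Newborn minus preterm aorta (1273) gave 699 with normexp, 534 with median centring, 344 under 1.5, 314 with only the groups compared and 853 to 1448 with 1 array left out.

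Ductus and aorta arrays of a stage share replicate numbers, and 6 of 12 same-numbered pairs had deviations that correlated over 0.1 (r from −0.585 to 0.820). In newborns 3 of 4 same-numbered pairs were over 0.1 (0.192, 0.148 and 0.154), and the highest differently numbered pair gave 0.109. All newborn ductus arrays were in the class under 1.5. Whether the numbers pair the newborn samples was not tested. Differently numbered pairs reached 0.77 in near-term and 0.64 in preterm animals. In these fetal stages r also differed with the class of detection limit, so the values cannot show whether the numbers pair the samples. Preterm ductus replicate 1 (above 1.5) gave −0.585 with preterm aorta replicate 1 (under 1.5) and 0.507 with aorta replicate 2 (above 1.5). The main fit took the samples as unpaired. With the replicate number as a block (consensus correlation 0.178) the ductus minus aorta calls numbered 213, 272 and 2199, and none of the 12 differences of the 4 genes was called. The slide could not be run as a block, since each stage lies on 1 slide. The signal of ASPM near background on newborn arrays limits the size of its difference there.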
